A study of Mus musculus with 11 samples.

Results

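The genes described here are 8 markers of the pluripotent state: the developmental pluripotency-associated genes Dppa2, Dppa3, Dppa4 and Dppa5a, together with Zfp42, Utf1, Fbxo15 and Eras. They were found by gene symbol in the probe annotation of an Illumina mouse BeadChip, which gave 10 probes for 7 of the 8 genes among 46627 probes and 17711 annotated genes on the array. No probe was annotated to Dppa5a, which codes for an RNA-binding protein of early embryonic cells, so it has no value here.

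The study measured RNA from induced pluripotent stem cells (iPSC), which are differentiated cells reset to an embryo-like state, in a pair of culture conditions, with the feeder cells as a reference. All cells were of strain C57BL/6. The 2 feeder arrays hold embryonic fibroblasts that express leukemia inhibitory factor (LIF), the cytokine that keeps mouse stem cells undifferentiated. The 3 feeder-free arrays hold iPSC kept in medium with LIF at 1000 units per ml and 15% serum, and the 3 on-feeder arrays hold iPSC grown on a feeder layer and lifted off it by hand. For feeder culture the growth protocol names SNL76/7 cells stopped from dividing with mitomycin C, while the feeder arrays are named MSTO, and the labels do not say how the cells relate. Amounts of LIF and serum are stated for the feeder-free medium alone. How the iPSC were made and whether they are 1 line or several is not given in the sources used here. Nor do the labels tell whether the replicates came from separate cultures. The p-values therefore reflect the scatter among these arrays alone, which may be technical.

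Dppa2 and Dppa4 code for a pair of SAP-domain proteins that bind chromatin together, and in mouse embryonic stem cells they help to switch on genes of the early cleavage embryo. Dppa3, also called Stella, holds off the maintenance of DNA methylation by binding Uhrf1. Zfp42 (Rex1) is a zinc finger protein related to Yy1, Utf1 is a chromatin-bound protein of undifferentiated cells, Fbxo15 is an F-box protein whose gene is a target of Oct4 and Sox2, and Eras is a Ras-like protein of embryonic stem cells that signals through PI3 kinase.

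Promoters of Utf1, Zfp42 and Eras were taken from the RefSeq promoter table of build GRCm38.p6. It held no entry for Dppa2, Dppa3, Dppa4 or Dppa5a, and the promoter of Fbxo15 is not reported here. Utf1 and Eras differed between the iPSC cultures in opposite directions, while Zfp42 gave the dimmest signal. Each sequence is the 250 bases before the start of the gene, 5′ to 3′ on the gene's own strand, and lies upstream of the transcribed part. Capitals mark the octamer ATTTGCAT, the letters bound by Oct4 and related factors, and the GC box GGGCGG or its reverse complement CCGCCC, the letters bound by Sp and Klf factors.
Utf1 (chr7:139943606-139943855, plus strand): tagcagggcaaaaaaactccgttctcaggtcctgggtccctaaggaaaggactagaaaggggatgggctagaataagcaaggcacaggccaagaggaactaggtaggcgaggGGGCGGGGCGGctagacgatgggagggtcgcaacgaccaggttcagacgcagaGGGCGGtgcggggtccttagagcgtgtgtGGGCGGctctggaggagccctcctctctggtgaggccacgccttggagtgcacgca
Zfp42 (chr8:43307010-43307259, minus strand): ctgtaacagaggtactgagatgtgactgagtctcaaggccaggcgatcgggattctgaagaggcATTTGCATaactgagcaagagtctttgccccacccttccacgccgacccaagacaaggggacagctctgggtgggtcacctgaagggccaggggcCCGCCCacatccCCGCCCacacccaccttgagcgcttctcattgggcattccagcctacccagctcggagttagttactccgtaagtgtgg
Eras (chrX:7928608-7928857, minus strand): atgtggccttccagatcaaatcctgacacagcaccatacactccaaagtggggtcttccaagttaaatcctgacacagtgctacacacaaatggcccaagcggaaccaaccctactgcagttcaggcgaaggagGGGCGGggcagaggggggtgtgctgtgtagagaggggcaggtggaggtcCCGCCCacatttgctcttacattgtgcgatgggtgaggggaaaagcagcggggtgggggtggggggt
The Utf1 promoter held 4 GC boxes, beginning at positions -138, -133, -85 and -56 from the start, of which the pair farthest upstream share a base. The Zfp42 promoter held the octamer at -186 and GC boxes at -91 and -79, and the Eras promoter held GC boxes at -116 and -67. On both strands of the same window, a GC box was present in 32.7% of all 32851 promoters of the table and the octamer in 1.6%. The box CCACCC, present in 28.1% of promoters, occurred at 2 places in Zfp42 and at 2 in Eras, with none overlapping a GC box. Matches to CATTGTT (3.29% of promoters), TTCNNNGAA (7.02%) and TATAAA (12.4%) were not found in the 3 windows. Utf1 had 14 CpG pairs, more than 70.6% of promoters, against 9 in Zfp42 and 6 in Eras. These matches describe letters only, and binding was not measured here.

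Levels are given as log2 of background-corrected signal after quantile normalization, and a probe counts as detected where its deposited detection score was above 0.95. The feeder arrays had 13581 to 14574 detected probes and the iPSC arrays 17307 to 19043. The labels of the cultures held against their markers: Pou5f1 (Oct4) averaged 12.67 ± 0.13 (SD, n = 3) in feeder-free and 12.51 ± 0.18 (n = 3) in on-feeder iPSC. The summed linear signal of 17 measured fibroblast markers was 64390 to 68960 on feeder arrays, 9089 to 9807 on feeder-free arrays and 20510 to 20930 on on-feeder arrays. Between 15 and 17 of those 17 genes were detected on each iPSC array. In feeder-free iPSC 15 of the 17 were called lower than in feeder cells and 2 higher by limma. Those higher were Fn1 (1.46 on the log2 scale) and Sparc (2.49, detected on no feeder array). The summed signal of 11 primitive endoderm genes was 29620 to 29890 on feeder-free and 5463 to 6032 on feeder arrays. Most of that sum came from Col4a1 and Col4a2, at 13.43 and 13.75 in feeder-free iPSC and 10.33 and 11.68 in feeder cells. In bulk RNA, fewer cells of a type and less RNA per cell cannot be told apart.

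**Figure D1:**
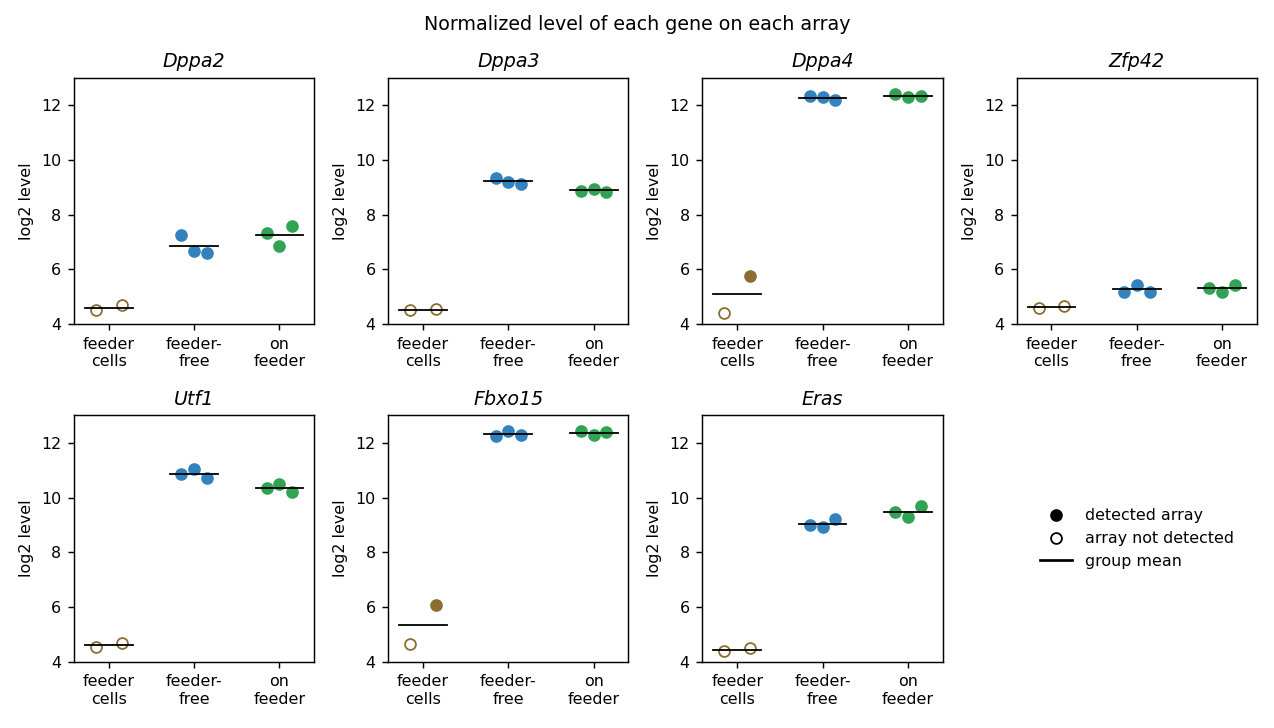
Log2 level of the 7 measured genes on each array, by culture (2 feeder, 3 feeder-free and 3 on-feeder arrays). Filled points are arrays on which the probe was detected, open points are arrays on which it was not, and bars are group means. Dppa4 and Fbxo15 are each detected on 1 feeder array, and Zfp42 lies close to the feeder level in all iPSC arrays. The iPSC groups do not overlap for Dppa3, Utf1 and Eras, which also occurred for some genes that were not called.

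The first comparison asks how far each gene separates iPSC from the feeder layer. All 7 measured genes were higher in iPSC without feeder than in feeder cells, from Zfp42, whose fold could not be bounded, to Dppa4 and Fbxo15, which were 91.7-fold and 76.3-fold above the 1 feeder array that detected them. They entered the test through their detection on iPSC arrays, so a higher level there was built into the choice, and 40.8% of the 10058 genes tested were called higher in this comparison. The values below are therefore a description. Where neither feeder array detected a probe, the fold is a lower bound, taken against the lowest level among detected probes on each feeder array.

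Dppa4 was at 4.42 and 5.75 on the feeder arrays, at 12.32, 12.31 and 12.17 on the feeder-free arrays and at 12.39, 12.28 and 12.32 on the on-feeder arrays. All iPSC arrays lay far above both feeder arrays, which themselves differed, with the probe detected on feeder array 2 (score 0.966) and not on feeder array 1 (score 0.0518). Feeder-free iPSC lay 91.7-fold above feeder array 2 and at least 119-fold above feeder array 1, taking the lowest detected level there. The fitted log2 difference from the feeder mean, 7.18 (SE 0.27), counts the undetected array at its own level and is no bound: it was 6.45 without feeder array 1 and 7.85 without feeder array 2, which leaves only the array without detection. The 2 dimmer Dppa4 probes were detected on no feeder array and gave at least 35.2-fold and at least 15.6-fold higher levels in feeder-free iPSC.

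Dppa2 lies next to Dppa4 in the RefSeq gene table, with no other gene listed between them. Its brighter probe was at 4.52 and 4.68 in feeder cells, at 7.25, 6.67 and 6.61 in feeder-free iPSC and at 7.32, 6.86 and 7.58 in on-feeder iPSC. Every iPSC array detected it and no feeder array did, which gave a level at least 2.6-fold higher in feeder-free and at least 3.45-fold higher in on-feeder iPSC. A further Dppa2 probe, with signals of 67.9 to 96.2 before normalization, was detected on 1 of 8 arrays (on-feeder array 3) and was left out of the tests.

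**Figure D2:**
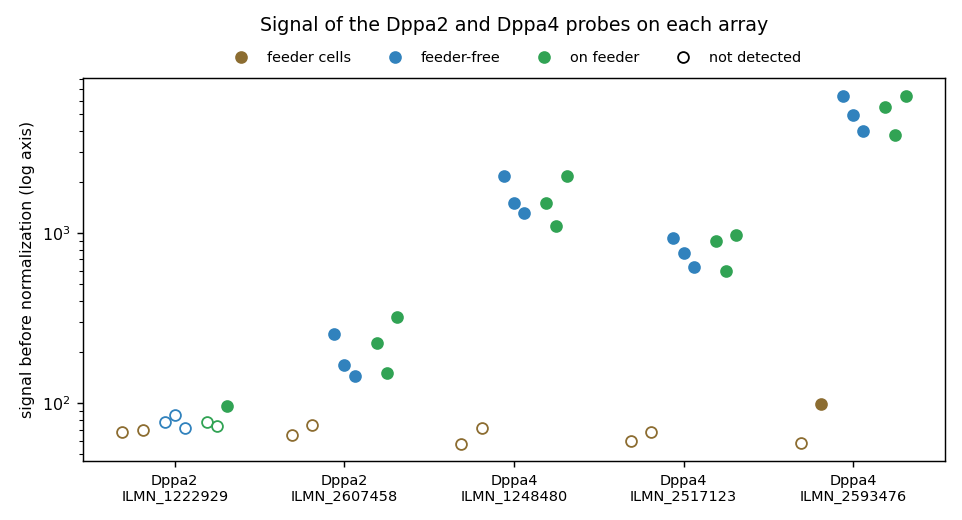
Signal before normalization of the 2 Dppa2 and 3 Dppa4 probes on each array, on a log axis, with open points where the probe was not detected. The 3 Dppa4 probes and 1 Dppa2 probe are brighter on the iPSC than on the feeder arrays, while the other Dppa2 probe stays between 67.9 and 96.2 on all 8 arrays.

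Dppa3 was at 4.51 and 4.54 in feeder cells, where it was not detected, at 9.32, 9.21 and 9.12 in feeder-free iPSC and at 8.88, 8.92 and 8.84 in on-feeder iPSC. The 3 groups did not overlap, with feeder-free iPSC on top. Against feeder cells Dppa3 was at least 13.4-fold higher in feeder-free and at least 10.7-fold higher in on-feeder iPSC.

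Zfp42 was at 4.60 and 4.66 in feeder cells, at 5.18, 5.43 and 5.19 in feeder-free iPSC and at 5.34, 5.18 and 5.42 in on-feeder iPSC. The gene is widely used as a marker of naive pluripotent cells, yet its probe passed the detection threshold on the iPSC arrays by a small margin, with scores of 0.971 to 0.991 and signals of 79.5 to 107.1 before normalization. It failed on both feeder arrays (68.6 and 73.6). The log2 difference of feeder-free iPSC from feeder cells was 0.63 (SE 0.12), with an adjusted p of 0.000322 by limma, and the on-feeder difference was 0.68. No fold is given, since the iPSC level lay below the lowest detected level of the feeder arrays. With a detection score above 0.99 required, Zfp42 no longer entered the test.

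Utf1 was at 4.52 and 4.67 in feeder cells, where it was not detected, at 10.85, 11.04 and 10.73 in feeder-free iPSC and at 10.37, 10.50 and 10.21 in on-feeder iPSC. Again the 3 groups did not overlap, and feeder-free iPSC were highest. Utf1 was at least 42.4-fold higher than in feeder cells in feeder-free iPSC and at least 29.7-fold higher in on-feeder iPSC.

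Fbxo15 was at 4.65 and 6.06 in feeder cells, at 12.23, 12.42 and 12.30 in feeder-free iPSC and at 12.45, 12.27 and 12.40 in on-feeder iPSC. As for Dppa4, it was detected on feeder array 2 (score 0.979) and not on feeder array 1 (score 0.573), and the iPSC groups overlapped. Feeder-free iPSC lay 76.3-fold above feeder array 2 and at least 123-fold above the lowest detected level of feeder array 1. The fitted log2 difference from the feeder mean, with the same limit as for Dppa4, was 6.96 (SE 0.28), or 6.18 without feeder array 1 and 7.67 without feeder array 2. On feeder array 2, 12 of 23 other pluripotency genes were also detected, against 9 on feeder array 1. The part of that in the feeder levels of Dppa4 and Fbxo15 was not tested.

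Eras was at 4.38 and 4.49 in feeder cells, where it was not detected, at 9.004, 8.91 and 9.21 in feeder-free iPSC and at 9.48, 9.29 and 9.68 in on-feeder iPSC. Here the on-feeder arrays were highest, with no overlap between groups. Eras was at least 11.9-fold higher than in feeder cells in feeder-free iPSC and at least 16.2-fold higher in on-feeder iPSC.

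For on-feeder iPSC against feeder cells, all 7 measured genes were likewise higher (39.1% of genes tested were called higher), with Dppa4 95.7-fold and Fbxo15 79.2-fold above feeder array 2, and at least 124-fold and at least 127-fold above feeder array 1. The fitted log2 differences were 7.24 for Dppa4 (6.52 without feeder array 1 and 7.92 without feeder array 2) and 7.01 for Fbxo15 (6.23 and 7.72). Both comparisons with feeder cells share the 2 feeder arrays.

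The next comparison asks how the markers differed between the iPSC cultures. Effects of the feeder layer, the medium, the lifting by hand and carried feeder RNA cannot be told apart in it. Between on-feeder and feeder-free iPSC, Utf1 and Dppa3 were lower on feeder cells, Eras was higher, and Dppa2, Dppa4, Zfp42 and Fbxo15 did not pass the test. Thus 1 of 7 measured genes was called higher and 2 lower, where 10.0% of all genes tested were called higher and 8.46% lower. The median log2 difference of the 7 genes was 0.05, against -0.02 over all genes tested. All calls in this comparison are by limma with Benjamini-Hochberg adjustment over the 10058 genes. Lack of overlap between the groups is given below as description only. Genes that were not called, such as Khdc3 and Esrrb, lacked overlap too, and the share over all genes tested was not counted.

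Utf1 showed the greatest difference of the 7 genes. Its mean log2 level was 10.36 ± 0.15 (SD, n = 3) on feeder cells and 10.87 ± 0.15 (n = 3) without them, which is 70.1% of the feeder-free level. The log2 difference was -0.51 (SE 0.12, 95% interval -0.76 to -0.26, adjusted p = 0.00944 by limma), and every on-feeder array lay below every feeder-free array. Across the other ways of processing it ranged from -0.59 to -0.43 and was not called under median scaling (-0.48, adjusted p = 0.261). Leaving out any 1 array kept the call.

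Dppa3 averaged 8.88 ± 0.04 (SD, n = 3) on feeder cells and 9.21 ± 0.10 (n = 3) without them. The log2 difference was -0.33 (SE 0.10, 95% interval -0.54 to -0.13, adjusted p = 0.0295 by limma), with all on-feeder arrays below all feeder-free arrays. The call was lost without feeder-free array 1 (-0.28, adjusted p = 0.0798), feeder-free array 2 (-0.34, 0.075), on-feeder array 1 (-0.33, 0.0806) or on-feeder array 3 (-0.32, 0.0802), and under median scaling (-0.30, 0.625), with the direction kept.

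Eras averaged 9.48 ± 0.19 (SD, n = 3) on feeder cells and 9.04 ± 0.15 (n = 3) without them, a 1.36-fold higher level. The log2 difference was 0.44 (SE 0.12, 95% interval 0.18 to 0.71, adjusted p = 0.0249 by limma), and all on-feeder arrays lay above all feeder-free arrays. Eras too fell short of the threshold without feeder-free array 1 (0.43, adjusted p = 0.0581), feeder-free array 2 (0.38, 0.101), on-feeder array 1 (0.45, 0.0673) or on-feeder array 3 (0.35, 0.0926). The same held under median scaling over all probes (0.44, adjusted p = 0.447) and over probes detected on every array (0.39, 0.0635).

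Dppa2 averaged 7.25 ± 0.36 (SD, n = 3) on feeder cells and 6.84 ± 0.35 (n = 3) without them, the widest spread of the 7 genes in both groups. Its log2 difference of 0.41 (SE 0.19, 95% interval -0.008 to 0.83) did not pass the test (adjusted p = 0.16 by limma), and the groups overlapped. It did pass without feeder-free array 1 (0.61, adjusted p = 0.0373) or on-feeder array 2 (0.61, 0.0363). Dppa2 was highest on feeder-free array 1 and on-feeder arrays 1 and 3, which had the most probes detected of the 6 iPSC arrays (18759, 18477 and 19043, against 17307 to 17864). The part of probe detection in the Dppa2 levels was not tested.

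Dppa4 differed between the iPSC cultures by 0.06 on the log2 scale (95% interval -0.46 to 0.58, adjusted p = 0.888 by limma). Its spread on the feeder arrays widened that interval, and in a fit of the iPSC arrays alone the SE fell from 0.24 to 0.10. The 2 dimmer Dppa4 probes gave -0.07 and 0.08, so the probes for Dppa4 lay on both sides of 0 and none passed the test. For Fbxo15 the log2 difference was 0.05 (95% interval -0.50 to 0.61, adjusted p = 0.909), and for Zfp42 it was 0.04 (95% interval -0.19 to 0.28, adjusted p = 0.81). In the fit of the iPSC arrays alone the SE for Fbxo15 was 0.105 (adjusted p = 0.767), against 0.255 with the feeder arrays in the fit. The Zfp42 value rests on signals close to background.

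**Figure D3:**
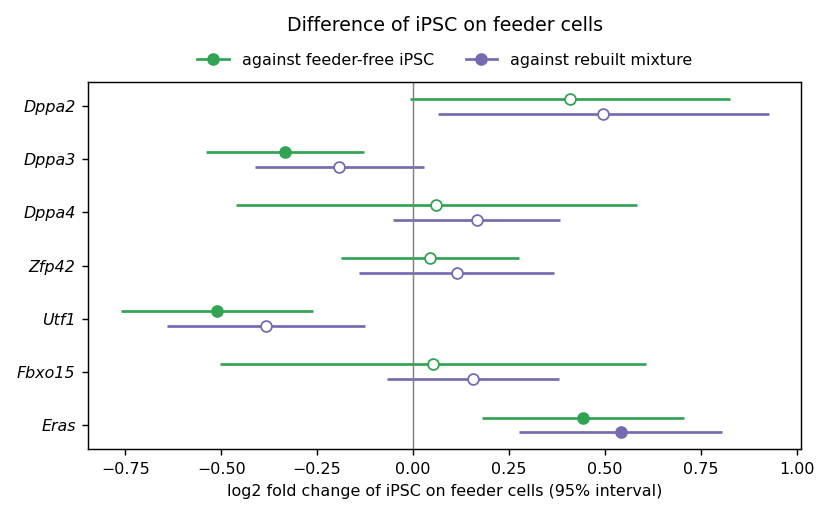
Log2 difference of on-feeder iPSC from feeder-free iPSC (green) and from the rebuilt mixture (purple) for each gene, with 95% intervals and filled points where the adjusted p was below 0.05. Utf1 and Dppa3 lie below 0 and Eras above 0 in both comparisons, and Eras is the gene that passed in both.

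The authors computed mixtures of 92% feeder-free signal and 8% feeder signal, against which on-feeder iPSC can be set at that stated feeder share. The share did not balance all feeder markers: of 17 tested fibroblast markers 6 were still higher in on-feeder iPSC than in the rebuilt mixtures, with S100a4 at 2.15, Dcn at 1.89 and Fbln2 at 1.31 on the log2 scale, and 2 were lower, Lox at -0.66 and Loxl1 at -0.50. Of 11 primitive endoderm genes 4 were lower and 1 higher. Their part in the values below was not tested. That admixture by itself lowered the computed log2 levels of all 7 genes. The shift was -0.12 for Utf1, Dppa4 and Fbxo15, -0.115 for Dppa3 and Eras, -0.095 for Dppa2 and -0.043 for Zfp42. For Dppa3 it stands beside a difference of -0.33 between the iPSC cultures. Against mixtures rebuilt from the recovered arrays, Eras was higher in on-feeder iPSC and the other 6 genes did not pass the test. Of all genes tested 5.68% were called higher and 5.32% lower in this comparison, which shares the on-feeder and feeder-free arrays with the one above and is not independent of it.

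In this comparison Eras was at 9.53, 9.35 and 9.72 on the on-feeder arrays and at 8.98, 8.86 and 9.13 in the mixtures. There was no overlap, and the log2 difference was 0.54 (SE 0.12, 95% interval 0.28 to 0.81, adjusted p = 0.0188 by limma). The call for Eras was lost without feeder-free array 2 (0.48, adjusted p = 0.0858), on-feeder array 1 (0.54, 0.0593) or on-feeder array 3 (0.45, 0.0614), and under median scaling (0.56, 0.555).

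Utf1 was at 10.38, 10.51 and 10.22 on the on-feeder arrays and at 10.75, 10.91 and 10.59 in the mixtures, again without overlap. Dppa3 and Dppa4, which did not pass the test, lacked overlap with the mixtures too. For Utf1 the lack of overlap is therefore description only. The Utf1 log2 difference was -0.38 (SE 0.12, 95% interval -0.64 to -0.13), with an unadjusted p of 0.00779 and an adjusted p of 0.0604 by limma, so no gene of the 7 was called lower. Utf1 passed under 7 of 20 other ways of processing, of which 2 are the same fit, with adjusted p-values from 0.0241 to 0.744 over all 20. Dppa3 stood at -0.19 (95% interval -0.41 to 0.03, adjusted p = 0.231), Dppa2 at 0.50 (adjusted p = 0.123), Dppa4 at 0.17 (0.29), Fbxo15 at 0.16 (0.332) and Zfp42 at 0.11 (0.541).

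The genes around the markers were taken as lists. Of 18 partners and relatives of the 8 genes, 14 had an annotated probe and 8 were tested. Between on-feeder and feeder-free iPSC, 1 of the 8 was called higher and 1 lower, close to the 10.0% and 8.46% over all genes tested, with a median log2 difference of 0.04. Khdc3 and Ooep are relatives of Dppa5a that form part of the maternal complex of the egg. In iPSC without feeder, Khdc3 was at least 19.4-fold higher than in feeder cells. Ooep lay 49.3-fold above feeder array 2, which detected it, and at least 126-fold above feeder array 1, which did not. Neither differed by the test between the iPSC cultures (-0.18 with adjusted p = 0.221, and 0.005 with adjusted p = 0.994). Uhrf1 and Dnmt1, which maintain DNA methylation and, through Uhrf1, meet Dppa3, were 1.10 and 1.11 higher on the log2 scale in iPSC without feeder than in feeder cells. Between the iPSC cultures they stood at 0.23 (adjusted p = 0.191) and 0.15 (adjusted p = 0.429).

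Cul1, the scaffold that binds F-box proteins such as Fbxo15, was the partner called higher on feeder cells (log2 difference 2.24, SE 0.13, adjusted p = 1.92e-07 by limma). Its probe was far brighter in feeder cells (11.60 ± 0.13, SD, n = 2) than in feeder-free iPSC (6.87 ± 0.05, n = 3). Set against the mixture, the Cul1 difference was 0.63 (adjusted p = 0.0206). Rbx1, the ring subunit of the same ligase, differed by 0.07 between the iPSC cultures (adjusted p = 0.7). Among relatives of Eras, Nras was lower on feeder cells (-0.35, adjusted p = 0.0374) and Rras stood at -0.13 (adjusted p = 0.477). The Nras probe was dim, at 5.35 on feeder cells and 5.70 without them. Against the mixture Nras did not pass (-0.37, adjusted p = 0.0546 by limma).

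Of 28 other pluripotency genes, 25 had an annotated probe and 23 were tested. On feeder cells 4 of the 23 were lower and none was higher by limma (1 higher at an unadjusted p under 0.05, Dusp6), with a median of -0.17. Over all genes tested 8.46% were lower and 10.0% higher. Lower were Klf4 (-0.94, adjusted p = 0.000857), Mybl2 (-0.63, 0.000921), Klf2 (-0.46, 0.0264) and Fgf4 (-0.42, 0.0375). Klf4 and Klf2 are Krüppel-like factors of the naive state, Mybl2 is a cell cycle regulator and Fgf4 is a growth factor made by pluripotent cells. Against the mixture Klf4, Mybl2 and Klf2 were lower and Dusp6, a phosphatase that limits ERK signalling, was higher (0.44, adjusted p = 0.0377). The core factors did not pass between the iPSC cultures, with Pou5f1 at -0.17 (adjusted p = 0.709), Nanog at 0.20 (0.397) and Sox2 at -0.33 (0.17).

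Of 19 genes of the two-cell-like state and the germline, which take in targets of Dppa2 and Dppa4, 13 had an annotated probe and 6 were tested. By limma none of the 6 was called between the iPSC cultures in either direction (1 at an unadjusted p under 0.05, Ddx4 at -0.30), and their median was 0.04. Over all genes tested 10.0% were called higher and 8.46% lower. Zfp352, Tcstv3 and Dazl were dim, at 5.10, 5.13 and 5.36 in feeder-free iPSC. The lowest detected levels on those arrays were 4.94 to 5.05, so for these genes the lack of a call cannot show an unchanged level. Tfap2c, a germ cell factor, was at least 21.5-fold higher in iPSC without feeder than in feeder cells and differed by 0.24 between the iPSC cultures (adjusted p = 0.268).

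Markers of other cells moved between the iPSC cultures as well, where 10.0% of all genes tested were higher on feeder cells and 8.46% lower. Of 17 tested fibroblast markers 13 were higher on feeder cells and none lower (0 lower at an unadjusted p under 0.05), with a median of 1.51. Of 11 tested primitive endoderm genes 6 were lower, with Gata4 at -1.27, and 1 was higher, Pdgfra at 0.63. The others, among them Gata6 (-0.23) and Dab2 (0.05), were not called. The summed signal of the list was 29620 to 29890 without and 21900 to 23830 with feeder cells. Most of that sum came from Col4a1 (-0.615, called) and Col4a2 (-0.27, not called). Of 9 tested genes of the primed epiblast and early lineages 3 were lower and none higher (0 higher at an unadjusted p under 0.05). The summed signal of the 7 markers was 12630 to 13880 in feeder-free and 12610 to 13660 in on-feeder iPSC. Dppa4 and Fbxo15, at 12.27 and 12.32 in feeder-free iPSC, made up most of it, so the sum says little about the other markers. What part the fibroblast and primitive endoderm markers had in the differences of Utf1, Dppa3 and Eras was not tested.

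**Figure D4:**
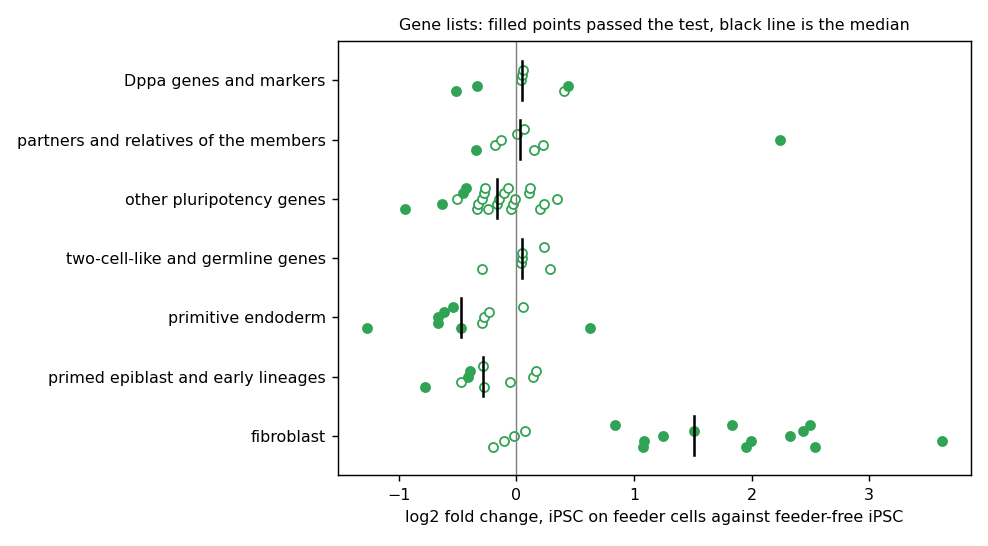
Log2 difference of on-feeder from feeder-free iPSC for each tested gene of the 7 lists, with filled points where the adjusted p was below 0.05 and a black line at the median. The markers lie between -0.51 and 0.44 with a median of 0.05, while the fibroblast list has a median of 1.51 and the primitive endoderm list one of -0.47.

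The genes closest in pattern to each marker were taken as those with the smallest root-mean-square difference of centred log2 level over the 8 arrays, 3 per marker. Dppa4 and Fbxo15 were each other's nearest gene (0.12), and Pou5f1 came next for both (0.21 for Dppa4 and 0.18 for Fbxo15). The other markers were nearest to genes outside the lists: Utf1 to Gldc (0.11) and Csrp1 (0.12), Dppa3 to Liph and Apoc1 (0.095 each), Eras to Etl4 (0.13), Dppa2 to Tpx2 (0.12) and Zfp42 to Armh3 (0.052). Over the 6 iPSC arrays alone the nearest gene changed for every marker except Dppa2, which stayed nearest to Tpx2 (0.085). There Utf1 was nearest to Dctn1 (0.023), Dppa3 to Snrnp200 (0.022), Eras to Edn2 (0.036), Dppa4 to Trim30d (0.022), Fbxo15 to Trps1 (0.026) and Zfp42 to Slc5a6 (0.023). Points on the same array share its labelling and normalization.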

How the data were processed

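RNA from 8 arrays was measured as biotinylated cRNA on Illumina BeadChips. The table deposited by the authors holds non-normalized bead intensity per probe, per the file headers, and a deposited detection score that rises with the signal (Spearman 0.9961 to 0.9987) and was read as 1 minus the detection p. The submitters' processing notes name limma, whose version and role are not given in the sources used here. The further deposited table, of intensity values normalized between arrays, was not used, since only its feeder columns matched.

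The 3 deposited feeder-free columns are pools, and 2 of them are identical. Each feeder-free array was therefore recovered from its mixture column, computed by the authors, as (mixture minus 8% of the feeder mean) divided by 92%. Its detection score is the one deposited beside the pooled column with its number. That score followed the recovered signal (Spearman 0.9965 to 0.9978) and was used for its background correction and filter. Averaged and mixed again at those shares, the recovered arrays gave back the third pooled column to within 0.0471 signal units. That step returns the mean of the mixture columns whatever the share. It therefore shows what the pooled column holds and does not test the recovery.

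Background was corrected by normexp from detection p-values (offset 16; limma 3.58.1, R 4.3.3), then signals were quantile normalized and put on the log2 scale. The filter kept 18144 of 46627 probes, those whose score passed 0.95 on all arrays of some group, and 5 entries without an ID were dropped. The brightest probe stood for each of 10058 genes. Symbols came from the platform annotation: 29972 probes had 1 symbol, 10 several and 16645 none, and 29917 were found in RefSeq by Entrez ID.

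Groups were compared with lmFit and eBayes in 1 fit over the 8 arrays, two-sided, with Benjamini-Hochberg adjustment over all genes tested and a threshold of 0.05. The mixture comparison had a normalization and fit of its own, over 3 rebuilt mixtures against the 3 arrays of on-feeder iPSC. Files were read in Python 3.11.15 (pandas 2.3.3, numpy 2.4.6) and figures drawn with matplotlib 3.10.9.

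The alternatives were other scalings, offsets, filters, probe rules, array weights, mixture shares, a replicate block and leaving out each array. The text names every one of the 8 genes, the partner and reference genes the results turn on, and the nearest genes by pattern. Genes of other lists are named where their values single them out. The 8 genes and all lists were chosen with earlier results of these data known. The number of arrays limits the precision.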

Additional observations from a re-analysis of the deposited data

How the results depend on the processing

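Across 18 other ways of processing, the number of the 7 markers called against feeder cells was 6 or 7 in both iPSC groups, with Zfp42 the gene that dropped out where a score above 0.99 was required. No marker that was called turned its direction in any comparison.

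Between on-feeder and feeder-free iPSC the count of 3 became 0 under median scaling, where calls over all genes fell from 1860 to 399 and the median of all genes for feeder-free iPSC against feeder cells stood at 0.28 on the log2 scale. Under that scaling the values relative to all genes hardly moved (Utf1 at -0.48, Dppa3 at -0.30 and Eras at 0.44) while their SEs rose to 0.20, 0.21 and 0.23. Median scaling over probes detected on every array, chosen after seeing the data, left Eras short of the threshold (0.39, adjusted p = 0.0635). Array weights called 4, adding Dppa2 (0.51, adjusted p = 0.0366). Leaving out 1 array at a time gave counts from 1 to 4.

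Against the rebuilt mixture the count of 1 became 0 under median scaling (110 genes called in all, from 1106), 2 with an offset of 50, 2 with a score above 0.99, 3 with array weights, 2 with a 4% feeder share and 2 without background correction. The deposited mixture columns, which carry no correction, also gave 2 and are the same fit as that without background correction. At a 4% share Utf1 stood at -0.44, Dppa3 at -0.26 and Eras at 0.48. At a 16% share they stood at -0.25, -0.06 and 0.66, and the count stayed at 1. Leaving out 1 array gave 0 to 3. The cause of these changes was not tested.

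The labels do not say whether the replicate numbers pair the samples. Correlations of deviations between same-numbered feeder-free and on-feeder arrays were 0.025, 0.164 and -0.198. Those between differently numbered arrays ran from -0.358 to 0.343. With 3 arrays a group, these values cannot decide whether same-numbered samples were handled together. With a replicate block the markers called numbered 7, 3, 7 and 1, as without it, and calls over all genes were 8053 for feeder-free iPSC against feeder cells, 1735 for on-feeder against feeder-free iPSC, 7987 for on-feeder iPSC against feeder cells and 797 against the mixture, compared with 8233, 1860, 8130 and 1106 without it.

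Over all genes tested, counts moved by more than 1.5 times from 1860 between the iPSC cultures without feeder-free array 2 (1172), feeder-free array 3 (1156), on-feeder array 1 (1219) or on-feeder array 3 (1170), and under median scaling. Against the mixture they moved so from 1106 under both median scalings (110 over all probes and 661 over probes detected on every array), with array weights (2086) and with a 16% feeder share (1740), and to 407 and 465 without feeder-free arrays 2 and 3, 569 without on-feeder array 1 and 540 without on-feeder array 3.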
